A study of Rattus with 27 samples.

Results

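The genes of the cytosolic ribosomal proteins were followed in rats with a stroke model, in 3 tissues taken as coming from the same animals. Members were chosen by symbol alone: Rpl or Rps followed by a digit, Rplp0 to Rplp2 and Rpsa, without the Rps6k kinases and pseudogenes marked as such. This gave 73 of the 14506 genes with a usable probe. Of these, 42 encode proteins of the large subunit, with the 3 stalk proteins Rplp0, Rplp1 and Rplp2 among them, and 26 encode proteins of the small subunit. Another 4 are paralogues or carry a "-like" symbol (Rpl22l1, Rps4y2, Rpl36al1 and Rpl37l1), and 1, Rps19bp1, encodes a protein that binds Rps19 and is no part of the ribosome. Expression was measured on 27 Affymetrix rat Gene arrays of brain homogenate, white blood cells isolated from whole blood, and spleen homogenate of Sprague Dawley rats. The same number within a group in the titles was taken as the same rat, which gives 9 rats with 3 tissues each. All samples were taken 6 h after surgery. In the 3 sham-labelled rats the vessels were exposed under anaesthesia but not blocked, while 3 model-labelled and 3 vehicle-labelled rats had the middle cerebral artery occluded (MCAO). The protocol describes sham, vehicle and a group given the herbal formula YJ at 25 mg/kg, whereas the titles name sham, model and vehicle. Which of the latter groups received the formula is not settled by the labels, so both are named as labelled and neither is called treated. The age and sex of the rats, the side or part of the brain homogenized and any hybridization batch are not given in the sources used here.

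Cytosolic ribosomes make nearly all the protein of a cell. Each consists of a small subunit, which reads the mRNA, and a large subunit, which joins the amino acids, and each ribosomal protein is needed in about equal copies, so the genes are usually expressed together. Their mRNAs begin with a terminal oligopyrimidine (TOP) tract, through which mTOR signalling controls how strongly they are translated. The mRNA level is therefore only 1 of the layers that set ribosome supply, and proteins and ribosomes were not measured here. Dividing and secreting cells are known for a high demand for ribosomes.

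Values are given on the log2 scale of the robust multi-array average (RMA), so that a difference is the log2 of a fold change. They are compared for the same probe between arrays and never between genes. A gene was called where its adjusted p (Benjamini-Hochberg over all 14506 genes) in limma was under 0.05. Errors of differences are limma's SE, with 3 arrays per group. Within a tissue, p-values measure the spread between these rats. Comparisons between tissues treated all 27 arrays as independent, although 9 rats are taken to have given 3 tissues each. Replicate arrays correlated across genes with r between 0.968 and 0.995. The tissue labels were borne out by markers: all 11 neuron markers were called lower in sham spleen and in sham white blood cells than in sham brain, and all 15 T cell markers were called higher in both. Brain sham 5 stood apart from the other sham brains in 11 hypothalamic and thalamic markers, whose median lay 1.94 above the sham mean, against -0.58 and -0.73 in sham 3 and sham 4. In the white blood cells of the vehicle-labelled rats, 13 erythroid and reticulocyte markers lay 1.89 to 2.94 above the sham mean in the median, against 0.48 to 0.63 in the model-labelled rats. In homogenates and mixed cells, fewer cells of a type and less RNA per cell cannot be told apart.

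**Figure D1:**
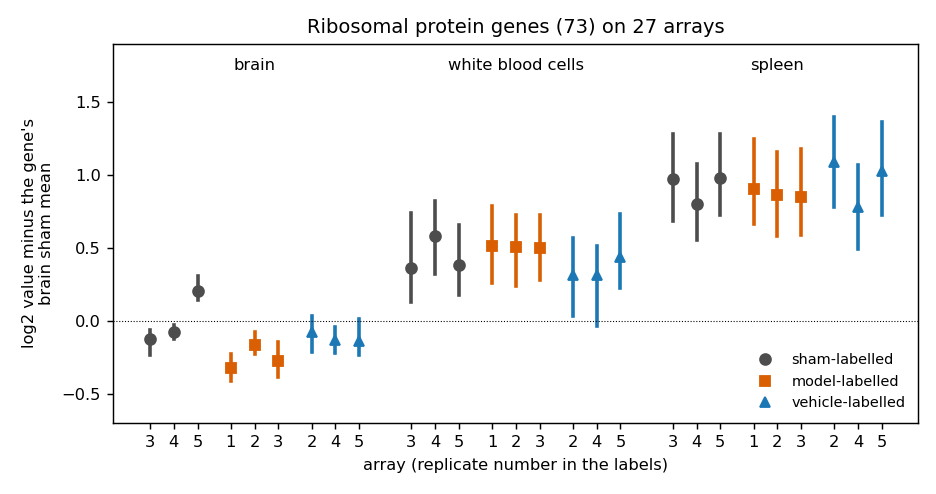
Median over the 73 ribosomal protein genes on each of the 27 arrays (points) with the interquartile range over genes (bars), as log2 value minus the same gene's mean in brain sham. The 9 brain arrays lie lowest, the white blood cells between 0.31 and 0.58, and the spleen between 0.78 and 1.09.

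Differences between tissues were far larger for these genes than differences between the MCAO and sham groups. In sham rats, 70 of the 73 were called higher in spleen than in brain and 0 lower, at a median difference of 0.91. Over all genes, 27.4% were called higher and 26.3% lower, with a median of 0.02. The 3 members without a call were Rpl22l1 (0.21 ± 0.29), Rps4y2 (0.18 ± 0.13) and Rps19bp1 (-0.05), none of them a core ribosomal protein. For 69 members all 3 sham spleens lay above all 3 sham brains, which held for 30.1% of all genes. All 42 large-subunit genes and all 26 small-subunit genes were among the calls, with medians of 0.84 and 1.09.

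Rps27, a zinc-finger protein of the small subunit, had the widest gap between spleen and brain. Its values were 5.48, 5.68 and 6.11 in the sham brains and 7.67, 7.44 and 7.79 in the sham spleens. They come from a single probe, and those in brain lay not far above the array medians of 4.96 to 5.31. The difference of 1.88 ± 0.28 (adjusted p = 2.46e-06) corresponds to 3.67-fold. Next came Rps18, a protein of the small subunit's head, at 1.48 ± 0.13, and Rpl22, a large-subunit protein that binds RNA outside the ribosome too, at 1.47 ± 0.12. Rpl22 stood at 9.67, 9.78 and 9.94 in the sham brains and at 11.38, 11.15 and 11.28 in the spleens, so the groups lay well apart. Rpl18 of the large subunit followed at 1.45 ± 0.17. At the low end of the calls were Rps29 at 0.27 ± 0.08, Rpl31 at 0.33 ± 0.09 and Rpl15 at 0.38 ± 0.15 (adjusted p = 0.0435). Rpl31 has 7 probes that did not agree, with differences from -0.63 to 0.34 in this comparison, and its value is uncertain.

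White blood cells lay between the other tissues. Against sham brain, 51 members were called higher and 1 lower, at a median of 0.44, where 31.1% of all genes were called higher and 28% lower. Against sham spleen, 57 were called lower and 0 higher, at a median of -0.48, where 19.3% of all genes were called lower and 19.7% higher. These counts depended on how the arrays are scaled to each other. After quantile normalization over all arrays the white blood cells had 28 members called higher and 9 lower than brain (median 0.19), and after median centring 57 higher and 1 lower (median 0.58). Against spleen the same settings gave 65 lower and 0 higher, and 37 lower and 1 higher. Median centring also moved the median of all genes, from 0.12 to 0.26 against brain and from 0.12 to 0.28 against spleen. Without brain sham 5, 69 members were called higher in spleen than in brain at a median of 1.04, and 56 higher and 0 lower in white blood cells at a median of 0.57. The spleen against brain held 66 calls higher and 0 lower after quantile normalization, and 69 and 0 after centring.

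**Figure D2:**
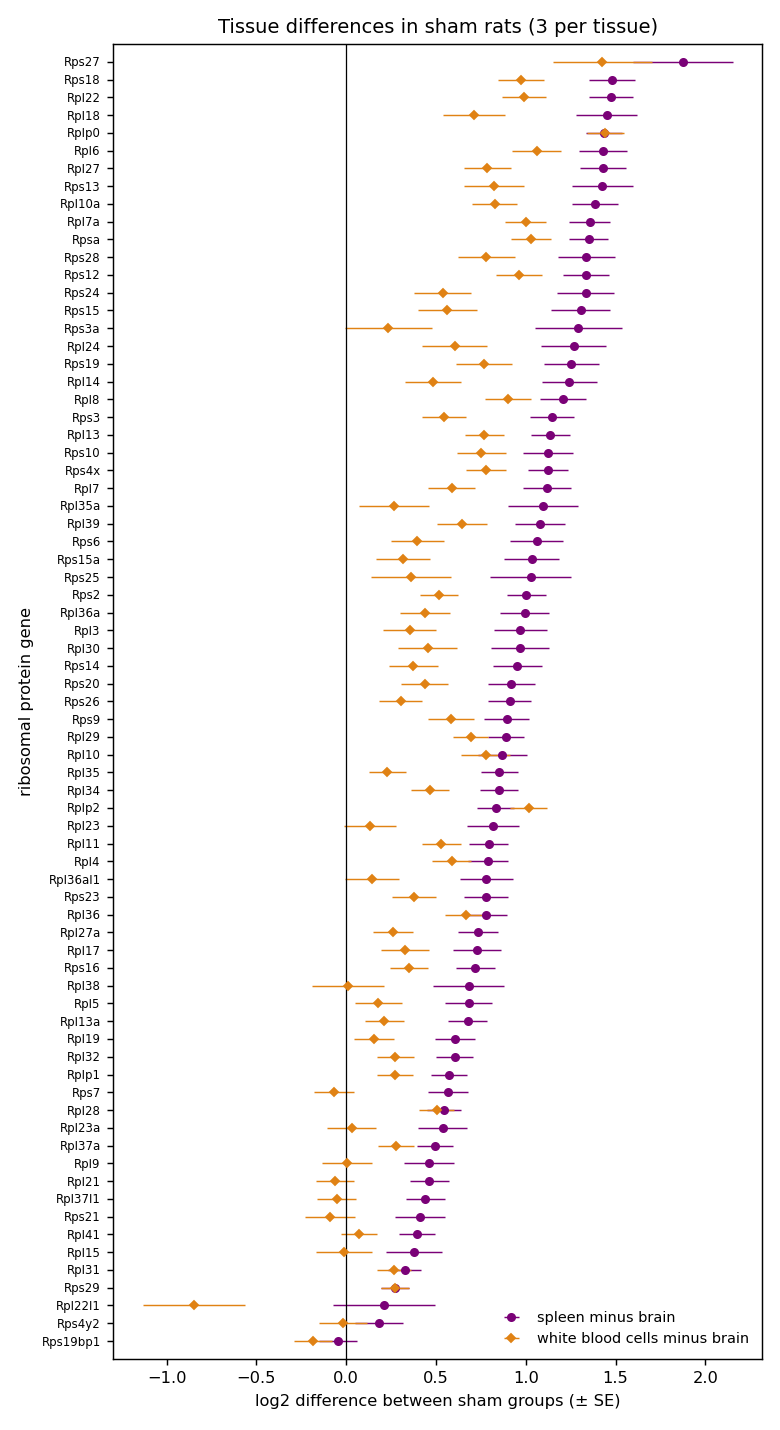
Log2 difference of each of the 73 genes between sham spleen and sham brain (circles) and between sham white blood cells and sham brain (diamonds), 3 rats per tissue, with limma's SE, ordered by the spleen difference. Nearly all circles lie right of 0, from Rps27 at 1.88 down to Rps19bp1 at -0.05, and Rpl22l1 is the one gene far to the left of 0 in white blood cells.

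Among genes higher in white blood cells than in brain, Rplp0, the base of the stalk that recruits elongation factors, led with 1.44 ± 0.10. It stood at 10.03, 9.84 and 9.91 in sham brain, at 11.52, 11.36 and 11.23 in white blood cells and at 11.51, 11.37 and 11.21 in spleen. White blood cells and spleen thus covered the same range for Rplp0, and their difference was 0.01 ± 0.10 (adjusted p = 0.962). Rps27 followed at 1.43 ± 0.28, then Rpl6 of the large subunit at 1.06 ± 0.14 and Rpsa, the small-subunit protein also known as the laminin receptor, at 1.03 ± 0.11. The other stalk proteins differed from Rplp0. Rplp2 was 1.02 ± 0.10 above brain and 0.18 ± 0.10 above spleen in white blood cells, the latter not called (adjusted p = 0.161), though it was called after median centring (0.34) and without white blood cell sham 5 (0.29). Rplp1 was 0.27 ± 0.10 above brain, called at adjusted p = 0.0247, but lay at -0.08 after quantile normalization and lost its call without white blood cell sham 3, brain sham 3 or brain sham 4.

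Rpl22l1, the paralogue of Rpl22 whose expression Rpl22 is known to hold down, had another order, with white blood cells lowest. Its sham values were 6.75, 7.22 and 7.88 in brain, 6.45, 6.56 and 6.30 in white blood cells and 7.42, 7.39 and 7.67 in spleen. White blood cells lay below all brain and spleen arrays, by 0.85 below brain in the mean (-0.85 ± 0.29, adjusted p = 0.0136) and by more below spleen (-1.06 ± 0.29, adjusted p = 0.0049). Without brain sham 5 the difference from brain was -0.55 and was not called (adjusted p = 0.118). Rpl22 itself was 0.99 ± 0.12 higher in white blood cells than in brain. Its sham mean was highest in spleen, at 11.27, against 10.79 in white blood cells and 9.80 in brain. The sham mean of Rpl22l1 was highest in spleen too, at 7.49, against 7.28 in brain and 6.44 in white blood cells. A link between these genes was not tested.

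The largest gaps between white blood cells and spleen, besides Rpl22l1, were in Rps3a at -1.06 ± 0.24, Rpl35a at -0.83 ± 0.20 and Rps24 at -0.80 ± 0.16. Rps24 and Rpl35a are genes mutated in the red-cell disorder Diamond-Blackfan anaemia. Rps3a read 9.34, 10.71 and 10.51 in the sham white blood cells and 11.22, 11.06 and 11.46 in the spleens. White blood cell sham 3 was therefore 1 array far below its 2 fellows for Rps3a. Without it the difference was -0.64 for Rps3a and -0.55 for Rpl35a, and both kept their calls (adjusted p = 0.0125 and 0.022). Rps24 read 9.06, 9.37 and 9.35 in white blood cells and 10.08, 9.83 and 10.26 in spleen, with no overlap.

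By the 3 pairwise tests, 37 members stood in steps, with spleen above white blood cells and white blood cells above brain. In 19 spleen was above both while white blood cells and brain were not told apart, and in 14 both were above brain while spleen and white blood cells were not told apart. The remaining 3 were Rpl22l1, Rps4y2 and Rps19bp1. Of the 26 small-subunit genes 18 formed steps, 5 had spleen alone above the others and 3 had brain alone below. Of the 42 large-subunit genes these patterns held for 19, 12 and 11. By means alone, the order spleen, white blood cells, brain held for 62 members in the sham rats, 69 in the model-labelled and 67 in the vehicle-labelled rats. The median gap between spleen and brain was 0.91, 1.15 and 1.12 in these groups, and that between white blood cells and brain 0.44, 0.81 and 0.48.

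The measured genes with special roles, except Rpl22l1, were all called higher in sham spleen than in sham brain. They differed in where the white blood cells stood. Rps6, the substrate of S6 kinase, was 1.06 ± 0.15 higher in sham spleen than in sham brain and 0.40 ± 0.15 higher in white blood cells, the latter call being lost in 4 of the 6 fits without 1 array. Rpl5 and Rpl11, which with an rRNA form a particle that can bind Mdm2, were 0.68 ± 0.13 and 0.79 ± 0.11 higher in spleen than in brain. In white blood cells Rpl11 was 0.53 ± 0.11 above brain, while Rpl5 was at 0.18 ± 0.13 and not called (adjusted p = 0.239). White blood cell sham 3 was again low for Rpl5, at 11.42 against 12.11 and 11.73, and without it Rpl5 was called at 0.35. Rps19, the gene most often mutated in Diamond-Blackfan anaemia, was 1.25 ± 0.15 higher in spleen than in brain. Rps3, at the mRNA entry of the small subunit, was 1.15 ± 0.12 higher by its brighter probe and 0.55 higher by its other probe. Rpl39 at the exit tunnel, Rpl3 near the catalytic centre, Rpl10, which joins the large subunit late, and Rpl13a differed by 1.08, 0.97, 0.87 and 0.68.

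Other parts of the translation machinery were compared through lists chosen with earlier results of these data known. In sham spleen against sham brain, 9 of 9 other TOP mRNAs were called higher, led by Rack1, a scaffold on the small subunit, at 1.45 ± 0.14. RNA polymerase I and its factors had 10 of 12 called higher and 1 lower, ribosome biogenesis genes 30 of 49 higher and 3 lower, and initiation factors 17 of 26 higher and 2 lower. Fibrillarin (Fbl), which modifies rRNA, was 1.33 ± 0.14 higher. The 8 elongation factors held 6 called higher and 1 lower, Eef1a2, the isoform of neurons and muscle, at -4.57 ± 0.14. Genes of mitochondrial ribosomes behaved differently: of 68, 4 were called higher and 27 lower in spleen than in brain, at a median of -0.25, and 1 was called higher and 44 lower in white blood cells, at -0.58. The S6 kinase and mTOR list held 4 higher and 10 lower in spleen, with Mtor at -0.54 ± 0.10.

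In the brains of the model-labelled rats, no ribosomal protein gene was called against sham, but nearly all lay on 1 side. The test called 0 of 73, where 1.16% of all genes were called. Of the members, 72 lay below 0 and Rps2 at 0.00, with a median of -0.26, while 44.6% of all genes lay below 0 with a median of 0.03. An unadjusted p under 0.05 was found for 24 members, all on the lower side, and for 14.4% of all genes in either direction. In 30 members all 3 model-labelled brains lay below all 3 sham brains, which held for 8.34% of all genes. The medians of the large and the small subunit were -0.25 and -0.27.

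**Figure D3:**
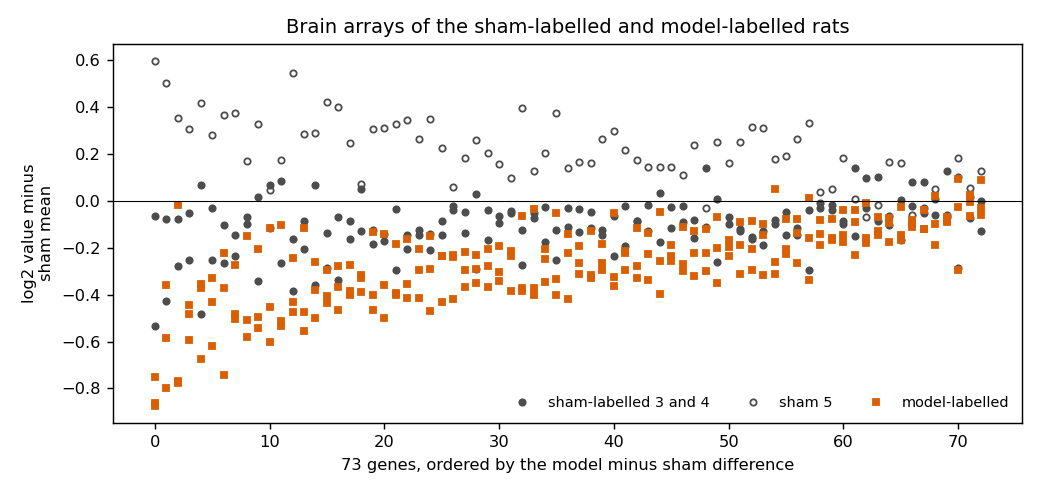
Each of the 73 genes in the brains of sham-labelled rats (grey; sham 5 as open circles) and model-labelled rats (orange squares), as log2 value minus the gene's sham mean, ordered by the difference of the group means. The open circles of sham 5 lie above the other sham values for most genes, and the squares lie mostly below 0.

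The shift rested partly on brain sham 5. Per array, the median of the members against the sham mean was -0.13, -0.08 and 0.20 in sham 3, 4 and 5, and -0.33, -0.16 and -0.28 in model 1, 2 and 3. All 3 model-labelled brains were below all 3 sham brains, but model 2 was only slightly below sham 3. Without sham 5 the members' median was -0.16, with 69 below 0 and 4 at an unadjusted p under 0.05. Sham 5 was also the brain with high hypothalamic and thalamic markers. Other markers moved with the group: the 16 neutrophil markers lay 0.39 to 0.50 above the sham mean in the 3 model-labelled brains (sham -0.12 to 0.08), with 10 at an unadjusted p under 0.05. Of 10 monocyte and macrophage markers 1 was called higher, Cd14, at 2.26 ± 0.32 (adjusted p = 0.00901). The 11 oligodendrocyte markers had a median difference of -0.59 with 10 below 0, but lay at -1.17 to 0.13 in single model-labelled brains and at -0.43 to 0.37 in sham brains. The part of these markers in the result was not tested. The genes of mitochondrial ribosomes lay on the same side, with a median of -0.29 and 63 of 68 below 0, of which 0 were called and 25 had an unadjusted p under 0.05.

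Rps7, a small-subunit protein, had the smallest p in this comparison. It read 11.14, 11.32 and 11.34 in sham and 10.88, 10.95 and 10.94 in model-labelled brains. The groups did not overlap, and the difference was -0.34 ± 0.10 (adjusted p = 0.192). Rpl22l1 read 6.75, 7.22 and 7.88 against 6.42, 6.53 and 6.41, a difference of -0.83 ± 0.26 (adjusted p = 0.208). The sham brains thus spread far more than the model-labelled ones for Rpl22l1, and without sham 5 its difference was -0.53. Rps24 read 8.47, 8.67 and 9.03 against 8.24, 8.28 and 8.13, a difference of -0.51 ± 0.16 (adjusted p = 0.217), again without overlap. Among the genes with special roles, Rps6 differed by -0.42 ± 0.16, Rps3 by -0.41 ± 0.14, Rpl11 by -0.30 ± 0.11 and Rpl5 by -0.01 ± 0.10.

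In the vehicle-labelled brains the members lay nearer to sham, and again 0 of 73 were called, where 0.0483% of all genes were. The median was -0.11, with 55 members below 0 and 17 above, and 8 members had an unadjusted p under 0.05, against 9.33% of all genes. Without sham 5 the median was 0.02, on the other side of 0. Rplp2, the stalk protein, had the smallest p. It read 10.46, 10.48 and 10.53 in sham, 10.30, 10.41 and 10.35 in model-labelled and 9.98, 9.95 and 10.04 in vehicle-labelled brains. The 3 vehicle-labelled brains were the lowest of all 9. The difference from sham was -0.50 ± 0.10 (adjusted p = 0.112), and without sham 5 it was -0.48. When all 27 arrays shared 1 estimate of the spread, Rplp2 was called (adjusted p = 0.00986). Rpl30, a large-subunit protein that binds RNA, read 9.89, 10.25 and 10.56 in sham and 9.81, 9.51 and 9.49 in vehicle-labelled brains, a difference of -0.63 ± 0.18 (adjusted p = 0.292). Rpl27a of the large subunit differed by -0.41 ± 0.12 (adjusted p = 0.291).

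Between the MCAO groups, 0 of 73 members were called in brain, where 0.0551% of all genes were. Vehicle-labelled brains lay above model-labelled ones for 62 members, at a median of 0.15, while the median of all genes was -0.01. In 26 members the vehicle-labelled brains were all above the model-labelled ones, against 10% of all genes, and in 3 all below, against 11.5%. These 3 were Rplp2 at -0.36 ± 0.10 (adjusted p = 0.183), Rpl27a and Rps23. On the other side, Rps24 read 8.92, 8.76 and 8.49 in the vehicle-labelled brains, above all 3 model-labelled ones, a difference of 0.51 ± 0.16 (adjusted p = 0.242). Rpl14 of the large subunit differed by 0.39 ± 0.11 (adjusted p = 0.206). Cell markers in the same brains are given beside these values. The 11 oligodendrocyte markers had a median of 1.36 with 0 below 0, and the 16 neutrophil markers one of -0.33 with 15 below 0; 9 and 8 of them had an unadjusted p under 0.05 and 0 were called. Their part in the members' values was not tested.

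In white blood cells, the members of model-labelled and sham rats were close. The test called 0 members, as it called 0% of all genes. The median was 0.01, with 34 members below 0 and 39 above, and 0 members had an unadjusted p under 0.05 where 6.07% of all genes did. The smallest adjusted p was 0.822, for Rpl23 (0.26 ± 0.13) and Rpl14 (0.38 ± 0.19), both of the large subunit. Rps3a had the widest difference, 0.43 ± 0.26. The model-labelled rats read 10.56, 10.68 and 10.60, close to 10.71 and 10.51 in sham 4 and 5, while sham 3 was low at 9.34.

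In the white blood cells of vehicle-labelled rats, Rps28 and Rpl30 fell, and they were the only members called within a tissue. That is 2 of 73, where 0.427% of all genes were called lower and 1.58% higher. Rps28, a protein in the head of the small subunit, read 10.73, 10.68 and 10.47 in sham, 10.65, 10.56 and 10.56 in model-labelled and 9.85, 9.80 and 9.97 in vehicle-labelled rats. All 3 vehicle-labelled rats lay below every other rat. The difference from sham was -0.75 ± 0.11 (adjusted p = 0.00213), or 1.69-fold lower, and from the model-labelled rats -0.72 ± 0.11 (adjusted p = 0.00422). Rpl30 read 10.75, 10.74 and 10.57 in sham, 10.59, 10.68 and 10.72 in model-labelled and 10.05, 9.95 and 10.25 in vehicle-labelled rats. The difference from sham was -0.60 ± 0.12 (adjusted p = 0.0146), or 1.52-fold lower, and from the model-labelled rats -0.58 ± 0.12 (adjusted p = 0.0223), where 0.296% of all genes were called lower and 1.26% higher.

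Each of these genes has a second probe, which gave -0.76 for Rps28 (adjusted p = 0.00183) and -0.65 for Rpl30 (adjusted p = 0.00849) against sham. Probes listed for 1 gene may share sequence, so they are not independent. The call of Rps28 held without any 1 of the 9 arrays, against either group. The call of Rpl30 against sham was lost without vehicle 2 (adjusted p = 0.0597), vehicle 4 (0.0924) or sham 4 (0.065), and with all 27 arrays in the fit (0.066). Against the model-labelled rats it was lost without vehicle 2, vehicle 4 or any 1 of the model-labelled rats, with adjusted p from 0.0751 to 0.139, and with all 27 arrays in the fit (0.101).

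The cell markers moved in the same arrays. Of the 13 erythroid and reticulocyte markers 11 were called higher against sham, for example Alas2, the first enzyme of haem synthesis in red cells, at 2.66 ± 0.19. Of the 16 neutrophil markers 7 were called higher, with Ngp at 3.64 ± 0.23, and their median per array lay 0.62 to 1.10 above the sham mean. Of 15 T cell markers 0 were called against sham, at -0.53 to 0.01 per array, and 1 was lower against the model-labelled rats, Tcf7 at -0.81 ± 0.17. Their part in the values of Rps28 and Rpl30 was not tested.

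Over all 73 members, Rps28 and Rpl30 included, the shift in these rats was smaller. Against sham, 58 lay below 0, as did 63.9% of all genes, with a median of -0.12 against -0.06 for all genes. The members' median was -0.055 to -0.175 when 1 array was left out, nearest to 0 without sham 4 and farthest without vehicle 5. Of the members, 14 had an unadjusted p under 0.05 on the lower and 2 on the higher side, against 13.4% of all genes on either side. In 12 members the vehicle-labelled rats were all below sham, against 9.89% of all genes. These included Rpl27a (-0.37 ± 0.11), Rplp2 (-0.37 ± 0.12), Rpl3 (-0.33 ± 0.12) and Rps19 (-0.30 ± 0.12), none called. Rplp2 read 11.60, 11.62 and 11.30 in sham and 11.11, 11.12 and 11.17 in the vehicle-labelled rats, so the gap to the lowest sham value was small. In 1 member, Rps24, they were all above sham, at 0.22 ± 0.12, against 5.38% of all genes. The members' median per array was -0.15 and -0.21 in vehicle 2 and vehicle 4 but 0.00 in vehicle 5, so the shift was present in 2 of the 3 rats. Without vehicle 5, Rpl22l1 was called as well, at -0.64 (adjusted p = 0.0238). Against the model-labelled rats, 61 members lay below 0, where 55.3% of all genes did, with a median of -0.13 against -0.02 for all genes. This median was -0.088 to -0.207 when 1 array was left out. An unadjusted p under 0.05 was found for 13 members, all lower, and for 1576 of the 14506 genes in either direction.

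**Figure D4:**
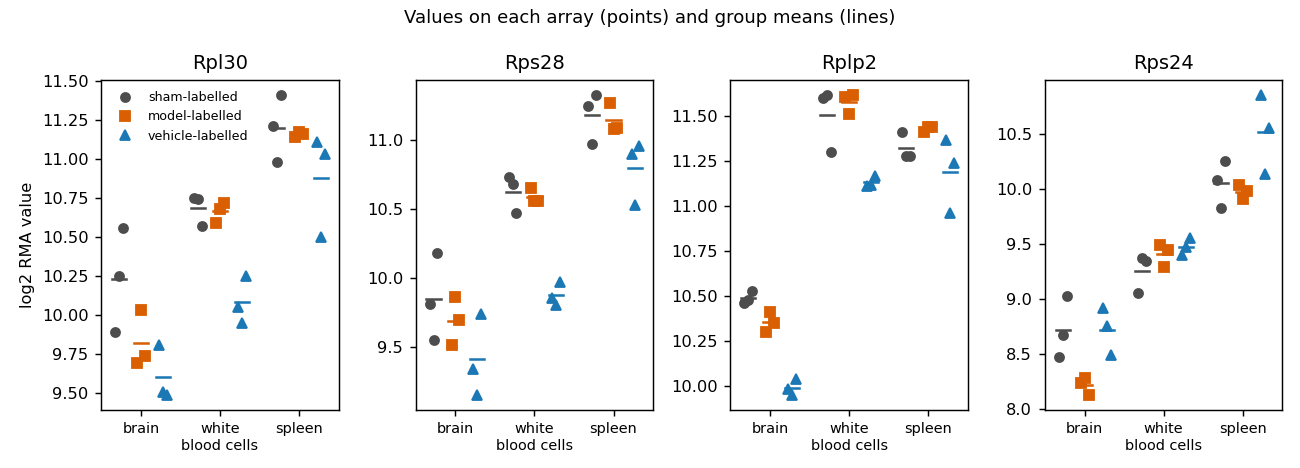
Log2 RMA values of Rpl30, Rps28, Rplp2 and Rps24 on each of the 27 arrays (points) with group means (lines), by tissue and labelled group; each panel has its own axis. The vehicle-labelled white blood cells lie below the other white blood cells for Rpl30, Rps28 and Rplp2, and the vehicle-labelled spleens extend above the others for Rps24.

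In the spleen, 0 members were called in any comparison. Against sham, the model-labelled spleens had a median difference of -0.04, 0 members with an unadjusted p under 0.05 (9.5% of all genes) and a smallest adjusted p of 0.563. Over all genes 0.0414% were called. The smallest p were those of Rps25, a small-subunit protein used by some viral mRNAs, at -0.37 ± 0.18, Rps3a at -0.31 ± 0.17 and Rpl35a at -0.24 ± 0.15. The vehicle-labelled spleens had a median of 0.08 against sham, where 0.0483% of all genes were called. Their per-array medians were 0.20, -0.09 and 0.14 for vehicle 2, 4 and 5, so vehicle 4 lay on the other side from its fellows. Leaving out 1 spleen at a time moved this median between 0.02 (without vehicle 2) and 0.16 (without vehicle 4), and that of model minus sham between -0.08 (without sham 4) and 0.01 (without sham 5). Cell markers varied widely among the vehicle-labelled spleens, at -1.80 to 0.34 from the sham mean for 13 erythroid, -0.95 to 0.23 for 15 T cell and -0.79 to 0.28 for 7 B cell markers. The 11 exocrine pancreas markers lay 0.17 to 0.74 above it there, and in the model-labelled spleens the erythroid markers lay 0.25 to 1.44 below it. Their part in the members' values was not tested. Rps24 read 10.08, 9.83 and 10.26 in sham, 10.04, 9.91 and 9.98 in model-labelled and 10.86, 10.14 and 10.56 in vehicle-labelled spleens. Vehicle 4 overlapped with sham for Rps24, and the difference was 0.46 ± 0.18 (adjusted p = 0.456). Rps28 read 11.25, 10.97 and 11.33 in sham and 10.90, 10.53 and 10.96 in vehicle-labelled spleens, all 3 below the lowest sham value, at -0.39 ± 0.15 (adjusted p = 0.461). Rpl30 differed by -0.32 ± 0.17 (adjusted p = 0.567). Between the MCAO groups the spleen had a median of 0.10 (0.05 without vehicle 2 and 0.17 without vehicle 4), with 5 members at an unadjusted p under 0.05 and 0 called, as for 0% of all genes (12.9% had an unadjusted p under 0.05). Rps24 was 0.54 ± 0.18, Rps25 0.48 ± 0.18 and Rpl35a 0.42 ± 0.15 above the model-labelled spleens.

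Rps28, Rpl30 and Rplp2 thus had negative differences from sham in all 3 tissues of the vehicle-labelled rats. The differences in brain, white blood cells and spleen were -0.44, -0.75 and -0.39 for Rps28, -0.63, -0.60 and -0.32 for Rpl30, -0.50, -0.37 and -0.13 for Rplp2, and -0.41, -0.37 and -0.13 for Rpl27a. For vehicle minus sham, 15 members were below 0 in the 3 tissues and 4 above, where 14.4% and 11.7% of all genes were. For model minus sham 25 members were below 0 in the 3 tissues and 0 above, where 11.3% and 14.4% of all genes were. For vehicle minus model 8 were below and 11 above, against 16.9% and 11.8% of all genes. These counts depend on the shift within each tissue, so they alone do not show a shared direction. In brain, white blood cells and spleen, 72, 34 and 44 members lay below 0 for model minus sham. For vehicle minus sham 55, 58 and 21 did. Over the 73 members, the vehicle minus sham differences of brain and white blood cells correlated with r = 0.66, those of brain and spleen with r = 0.53 and those of white blood cells and spleen with r = 0.53. Over all 14506 genes these correlations were 0.14, 0.11 and -0.05. For model minus sham, the members gave 0.01, 0.56 and 0.09 for the same pairs of tissues, and all genes 0.01, 0.15 and 0.18. For vehicle minus model the members gave 0.65, 0.68 and 0.62, and all genes 0.09, 0.06 and 0.30. Rank correlations of the members for vehicle minus sham were 0.61, 0.41 and 0.37. The tissues are taken to come from the same rats and the points are genes, not replicates, so these values describe the 9 rats only.

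**Figure D5:**
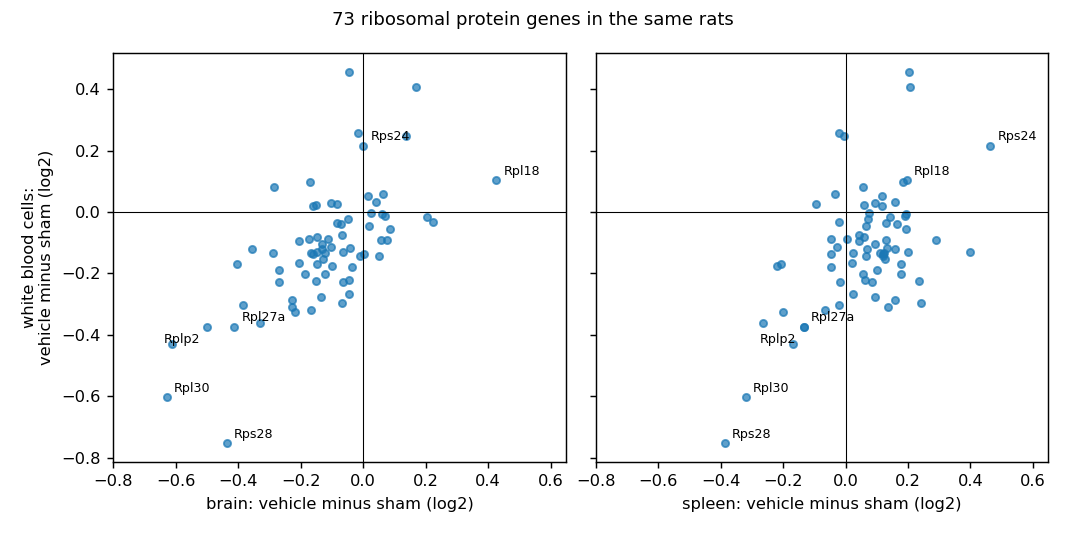
Vehicle minus sham difference (log2) of each of the 73 genes in white blood cells against that in brain (left) and in spleen (right); each point is a gene. Rpl30 and Rps28 lie at the lower left in both panels, and the spleen points are shifted to the right of the brain points.

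To weigh each rat once, the 3 tissues of a rat were averaged and the 9 means fitted, an analysis added after the values had been seen. Against sham, 0 of 73 members were called in the vehicle-labelled rats, where 0.372% of all genes were. The smallest adjusted p belonged to Rpl30 at -0.52 ± 0.10 (adjusted p = 0.0615), Rps28 at -0.53 ± 0.11 (0.0637), Rplp2 at -0.34 ± 0.08 (0.0918) and Rpl27a at -0.31 ± 0.08 (0.153). Leaving out vehicle 2 brought Rpl30 to a call, and leaving out vehicle 5 brought Rps28 to one. Against the model-labelled rats 0 members were called, where 0.172% of all genes were, with Rplp2 at -0.35 ± 0.08 (adjusted p = 0.0898), Rps28 at -0.45 ± 0.11 (0.103) and Rps24 at 0.37 ± 0.10 (0.146). For model minus sham, 0 members were called, where 0.807% of all genes were, and the smallest adjusted p was that of Rpl22l1 (-0.47 ± 0.15, adjusted p = 0.227).

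Whether the groups differed more in 1 tissue than in another was tested for each pair of tissues and each of the 3 group contrasts, and 0 of 73 members were called in any of these 9 tests. For white blood cells against spleen, white blood cells against brain and spleen against brain, the shares of all genes called were 0%, 1.07% and 0.82% for model minus sham. They were 0.772%, 0.862% and 0.145% for vehicle minus sham, and 0.0276%, 0.386% and 0.6% for vehicle minus model. The members came nearest to a call for model minus sham in white blood cells against brain. There 71 members lay above 0, with a median of 0.27, and 17 had an unadjusted p under 0.05. Of all 14506 genes, 58.5% lay below 0, with a median of -0.06, and 1792 had an unadjusted p under 0.05. This contrast contains the model minus sham shift in brain, which rested partly on brain sham 5. Rpl23 had the smallest p, with a difference of 0.64 ± 0.20 (adjusted p = 0.165), and was called without brain sham 3. For vehicle minus sham in white blood cells against brain the smallest adjusted p was 0.603, so neither Rps28 nor Rpl30 is shown to differ between these tissues in its response.

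Most members moved together from rat to rat, as did some genes outside the list. Each array's deviation from its group mean was taken, and each member correlated with the mean of the other members over the 27 arrays. The median r was 0.74, with 58 members above 0.5 and 0 below 0. The share of all genes above 0.5 was not taken, so these counts do not set the members apart from other genes. Within a tissue the medians were 0.81 in brain, 0.70 in white blood cells and 0.86 in spleen, and 7, 2 and 3 members lay below 0. The lowest were Rpl28 at -0.60 and Rps29 at -0.52, both in brain. Rps13 and Rps15a followed the others most closely, at 0.95 each. Rps19bp1 and Rps4y2 did so least, at 0.03 each, then Rpl38 at 0.06, Rps29 at 0.08 and Rpl28 at 0.16. Rpl38, a large-subunit protein known for a role in translating Hox mRNAs, read 10.75, 11.09 and 10.33 in the vehicle-labelled white blood cells, an uneven group. The genes outside the list that followed the mean of the members most closely were Eif2s3, a subunit of the factor that brings the initiator tRNA, at 0.90, Mrps7 of the mitochondrial ribosome at 0.89 and nucleolin (Ncl) at 0.88. The next were Mrpl9, C1qbp, Snrpd1, Tbca, Pomp, Lsm3 and Ssb, down to 0.85. All these points share arrays and their scaling, so the correlations are descriptions.

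The spread between replicate rats was slightly narrower for these genes than for all genes. The genes were not matched for level, so the narrower spread is not shown to be particular to the members. The median SD within a group was 0.15 in brain, 0.12 in white blood cells and 0.14 in spleen for the members, and 0.19, 0.16 and 0.18 for all genes. The 73 genes are covered by 261 probes, and 55 of them by more than 1, with up to 21 for Rpl21. In the spleen against brain, 187 of 188 other probes had the same sign as the probe kept. In model minus sham of white blood cells, where differences were near 0, 123 of 188 did. Ribosomal protein genes have many processed pseudogenes of nearly the same sequence, and a probe may read more than 1 of them.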

How the data were processed

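The authors deposited 27596 probe values for each of 27 arrays, processed with RMA per the submitters' processing notes, in a version not given in the sources used here. Those sources also do not say whether arrays of different tissues were normalized in 1 run. A log2 scale is assumed for the deposited intensities because the values span 1.53 to 13.49 and array medians span 4.96 to 5.31. Groups come from the sample titles, and the same number in a group is taken as the same rat in the 3 tissues. Across genes, residuals of 2 tissues had r from -0.058 to 0.517 within a rat (15 of 27 pairs above 0.1) and from -0.48 to 0.29 between rats of a group (2 of 54 above 0.1).

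Of the probes, 15310 had 1 gene symbol in the platform's table and were kept, 323 had several and 11963 had no listed gene. Through Entrez identifiers 15279 probes were found in RefSeq's genes, and 0 symbols had to be updated. Where a gene had several probes (527 genes), its brightest probe on average represents it, giving 14506 genes. Genes are given without positions or sequences, because the probe table used here names no build.

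Group contrasts came from 1 limma fit per tissue (limma 3.58.1, R 4.3.3) to its 9 arrays (lmFit, eBayes, 2-sided, 6 residual degrees of freedom). Sham tissues and differences of group contrasts between tissues were tested in a fit of all 27 arrays, without the rat as a block. P-values were adjusted by Benjamini-Hochberg over 14506 genes. Alternatives changed the arrays in the fit, the scaling, a filter at the 40th percentile of expression, the probe rule, the variance prior and the block, or left out 1 array at a time. The fits were tested on simulated data. The small number of arrays limits the precision.

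Named are the called members with the largest changes whose groups do not overlap or, where 0 were called, the 3 with the smallest p; 21 genes with special roles were listed to be named, of which 16 were measured. Other members were named after their values were seen. The members and lists were chosen with earlier results of these data known, so the lists give no independent support.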

Additional observations from a re-analysis of the deposited data

How the results depend on the processing

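Among the members named, 998 of the values under alternatives kept their direction and their side of the threshold, 46 kept the direction but lost the call, 12 gained one and 1 reversed. The 998 include members that were not called and stayed so. In white blood cells, Rpl30 kept its call against sham in 11 alternatives and lost it in 5. Against the model-labelled rats it kept the call in 9 and lost it in 7. Rps28 kept its call in 15 and lost it in 1, against either group. The reversal was Rplp1 in sham white blood cells minus sham brain, at -0.084 after quantile normalization. The median of the members in that comparison was 0.19 after quantile normalization and 0.58 after median centring, and in white blood cells minus spleen -0.66 and -0.32. With all 27 arrays in 1 fit, 1 member was called in brain vehicle minus sham and 1 in white blood cells vehicle minus sham.

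The replicate numbers do not pair rats of different groups: of 12 pairs of arrays with the same number, 2 had residuals correlated above 0.1. With the replicate number as a block, 0 members were called in white blood cells for vehicle minus sham (107 of all genes) and 0 for vehicle minus model (7 of all genes). The differences from sham stayed near their values without the block, at -0.73 for Rps28 (adjusted p = 0.12) and -0.58 for Rpl30 (adjusted p = 0.295). With this block the median of brain vehicle minus model was 0.024 and that of spleen model minus sham -0.16. The rat as a random block in the tissue comparisons changed no count of calls by more than 1.5 times, at 70, 53 and 60 members called.

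Leaving out 1 array at a time gave 1 to 3 members called in white blood cells vehicle minus sham and 1 to 2 in vehicle minus model. It gave 0 to 1 for model minus sham in white blood cells against brain, and 0 to 1 in both vehicle contrasts of the rat means. The median of brain vehicle minus sham ranged from -0.17 to 0.018, that of sham spleen minus brain from 0.84 to 1.04 and that of sham white blood cells minus brain from 0.34 to 0.57.

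With 3 rats per group, a difference that misses the threshold does not show that groups were alike. Group and hybridization batch cannot be told apart, since the sources used here give no batch.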
